A study of Mus musculus with 69 samples.

Results

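The late response to TPA was compared between F1 and FVB dorsal skin: for each gene, the change between 1008 h and untreated skin in F1 mice was set against the same change in FVB mice. TPA, a phorbol ester, switches on protein kinase C, and painted on skin it causes inflammation and a thicker epidermis. FVB is an inbred laboratory strain, given as FVB/N in the protocol, and F1 is its cross with Spret/Ei, a wild-derived strain labelled SPR when used alone. The arrays were chosen by strain and time in their titles, which gave 16 of the 69 arrays of the series: 6 of F1 at 1008 h, 4 of untreated F1, 3 of FVB at 1008 h and 3 of untreated FVB. SPR had 2 arrays at 1008 h and 2 untreated, and is given for comparison where it bears on a gene. All animals reached an age of 8 weeks before the back was shaved, and TPA in acetone was applied 2 days later. The protocol speaks of 1 dose or of vehicle and of times up to a week, whereas the design text of the series names replicate exposure. How often TPA was given before 1008 h, which is 6 weeks, and the interval since the last dose are therefore not settled by the labels. The samples hold no vehicle arrays, so effects of age, shaving and acetone cannot be told apart from those of TPA. The F1 arrays lie in batches 2 and 3 as the labels give them, and every FVB array lies in batch 1, so strain and batch cannot be told apart. For that reason no level is compared between strains, and each change is taken within its own strain.

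Hair is made by follicles that pass through growth, regression and rest. In a growing follicle, matrix cells at its base feed the inner root sheath, which moulds the hair and is built from its own keratins and trichohyalin, and the hair shaft, which is built from hair keratins cross-linked by keratin-associated proteins. A resting follicle makes little of either. In the epidermis between follicles, TPA is known to bring on stress keratins, small proline-rich proteins, antimicrobial peptides and cytokines of the activated keratinocyte.

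Expression values are deposited log2 values, on which 1 unit is a 2-fold step. The difference is the F1 change less the FVB change, so that a negative difference means that a gene was raised less, or lowered more, in F1. The fit's standard error stands after ±, intervals cover 95%, and a gene was called at an adjusted p under 0.05 (Benjamini-Hochberg over 18820 genes, limma) with a difference of at least 1. The labels do not tie arrays to mice of their own, so the spread behind each p-value is that of arrays and can be partly technical. Keratins of skin epidermis lay among the brightest genes on all 16 arrays, with Krt5 between 11.7 and 12.91 and Krt14 between 11.34 and 13.12. Xist lay between 10.76 and 12.43 on every one of the 16 arrays and the Y-linked Eif2s3y between 2.55 and 3.13. One array stood apart in a way that touches the results: replicate 1 of untreated F1, from batch 2, was above the other 3 untreated F1 arrays in 51 of 54 hair structural genes, by a median gap of 3.66 to the next highest. In FVB, replicates 2 and 3 of the untreated skin had mean liver transcript levels of 0.73 and 1.21 around their group mean, against -1.94 in replicate 1. The count of called differences and those of several lists are also given without these arrays.

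The difference was called for 266 of 18820 genes (1.41%), of which 99 were higher in F1 (0.526%) and 167 were lower (0.887%). The F1 change alone was called for 151 genes (0.802%), with 97 up (0.515%) and 54 down (0.287%). The FVB change was called for 1532 genes (8.14%), with 794 up (4.22%) and 738 down (3.92%). Of the 266 genes, 237 were called in FVB and not in F1, and the FVB change was the larger in size for 263. Among the 167 lower genes the median change was 0.28 in F1 and 3.23 in FVB, and among the 99 higher genes it was -0.06 in F1 and -1.52 in FVB. No gene was called in opposite directions in the 2 strains, at a threshold that asks for a call in each. The deviations of the 6 F1 arrays from their own controls did not overlap those of the 3 FVB arrays in 264 of the 266 genes, against 27.8% of all genes. The calls rest on the same deviations, so this describes the called genes and supports nothing further. The exceptions, singled out after their values were seen, were the beta-defensin gene Defb4 and Krtap20-2. Without replicate 1 of untreated F1, 135 genes were called, 50 higher and 85 lower. Without replicates 2 and 3 of untreated FVB, which leaves a single control, 9 were called. All 266 genes kept their sign in both cases. The F1 change was called for 211 genes without its control replicate 1, and the FVB change for 1061 without its controls 2 and 3.

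**Figure D1:**
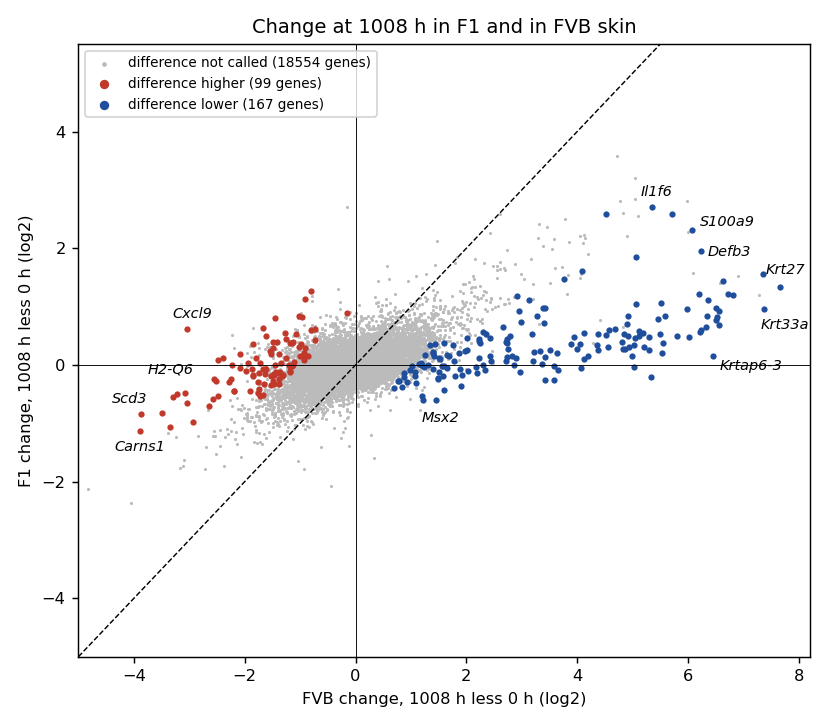
Change between 1008 h and 0 h on the log2 scale in F1 (vertical axis) and FVB (horizontal axis), 1 point per gene, with the 99 genes of higher and the 167 of lower difference coloured and the dashed line marking equal change. The coloured genes spread along the FVB axis, from Carns1 on the left to Krt27 on the right, while most lie near 0 on the F1 axis.

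The 8 genes called in both strains moved the same way in each. Of these, 7 rose in both and rose less in F1: S100a9, Serpinb3a, Il1f6, Lce3c, Aldh1a3, Klk14 and Igfl3. The remaining gene, Sema3d, fell in both and fell less in F1. A further 2 genes were called in F1 and not in FVB. They were named after their values were seen: Clca1, with an F1 change of 1.27 and an FVB change of -0.81, and Ndufa4l2, with an F1 change of 1.14 and an FVB change of -0.90. Of the 794 genes that rose in FVB, 719 had an F1 change of the same sign and 88 also rose in F1, with medians of 0.47 in F1 and 1.40 in FVB. Of the 738 that fell in FVB, 640 had the same sign in F1 and 46 also fell, with medians of -0.40 in F1 and -1.29 in FVB. Across all genes the F1 and FVB changes correlated at 0.606 (Pearson, 18820 genes, which are not independent replicates).

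**Figure D2:**
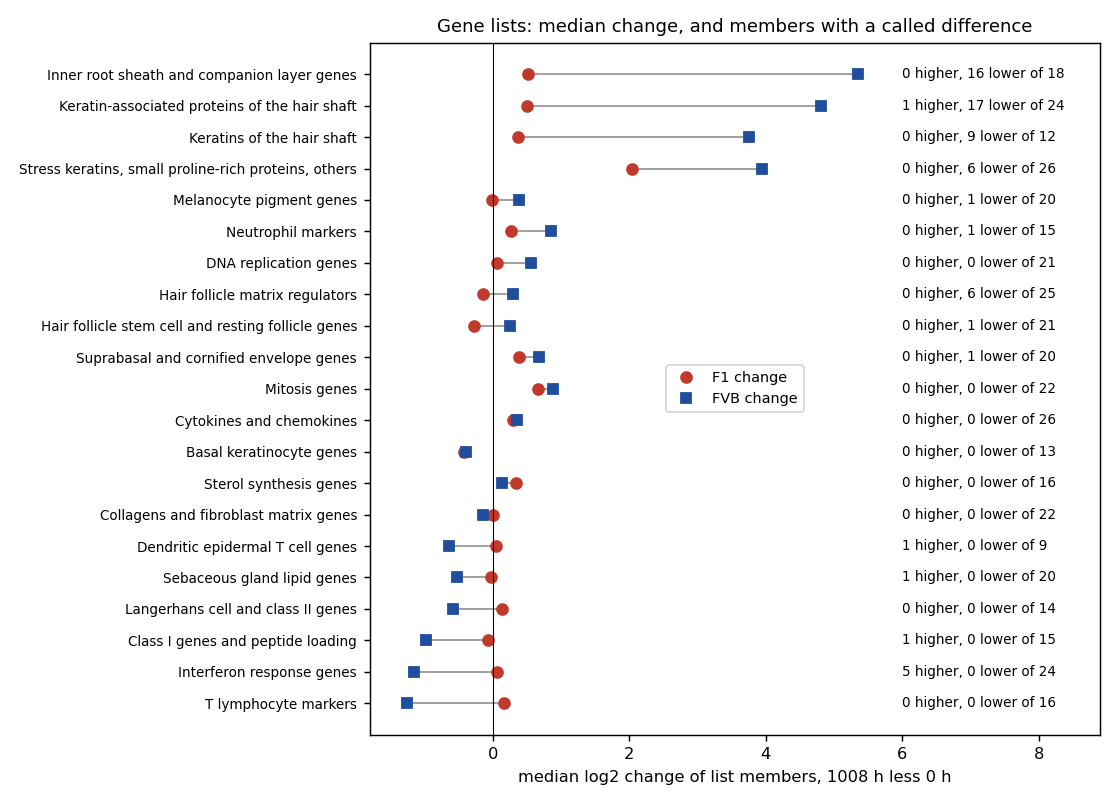
Median log2 change of the members of 21 gene lists in F1 (circles) and FVB (squares), ordered by the median difference, with the number of measured members whose difference was called higher or lower on the right. The lists of the inner root sheath and hair shaft stand far apart between the strains, while those of mitosis, collagens and basal keratinocytes lie close together.

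Genes of the growing hair follicle made up the largest block of the lower genes. Of the inner root sheath and companion layer list, 16 of 18 measured members had a lower difference, with a median of -4.75. For keratins of the hair shaft it was 9 of 12, with a median of -3.52, and for keratin-associated proteins 17 of 24, with a median of -4.30. Across all genes tested the median difference was 0.035, and 0.887% were lower. In whole skin, fewer cells of a type and less RNA per cell cannot be told apart. The lists together hold 54 measured genes, of which 42 were lower. Of all 45 measured genes of the Krtap family, 34 were lower and 1 was higher. Together these lists and the family account for 59 of the 167 lower genes, or 35.3%. Of the lower genes, 32 were on chromosome 11 (19.2%, against 7.82% of all genes tested) and 21 on chromosome 16 (12.6%, against 3.25%). Most of them on both chromosomes were Krt or Krtap genes, so these shares are not separate from the counts above.

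The promoters of 3 such genes and of an interferon-induced gene described further on are shown because members of the lists moved together. They are taken from RefSeq on GRCm38.p6 and run 5′ to 3′ on the gene's strand, from 250 bases before the annotated start to 50 after it. Capitals mark the TATA box letters TATAAA in the first 3 and both matches to the interferon response element, GAAA, any 2 bases and GAAA on either strand, in the last. The element was not marked in the first 3, although Krtap4-1 also holds a match to it (gaaaaagaaa). Krt27 lies at chr11:99351069-99351368 and Krtap4-1 at chr11:99628190-99628489, Krt71 at chr15:101743048-101743347, all on the minus strand, and Ifit1 at chr19:34640639-34640938 on the plus strand.
Krt27: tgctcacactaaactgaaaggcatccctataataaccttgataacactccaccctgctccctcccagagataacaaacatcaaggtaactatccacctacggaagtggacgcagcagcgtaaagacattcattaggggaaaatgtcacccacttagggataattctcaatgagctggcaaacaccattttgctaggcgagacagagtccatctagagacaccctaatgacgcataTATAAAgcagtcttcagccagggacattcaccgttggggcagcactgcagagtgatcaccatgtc
Krt71: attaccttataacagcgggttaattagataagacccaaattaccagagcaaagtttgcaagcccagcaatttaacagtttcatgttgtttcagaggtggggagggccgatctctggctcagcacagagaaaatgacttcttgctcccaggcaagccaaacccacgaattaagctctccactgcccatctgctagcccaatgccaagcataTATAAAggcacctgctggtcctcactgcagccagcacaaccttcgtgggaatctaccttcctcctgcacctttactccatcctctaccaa
Krtap4-1: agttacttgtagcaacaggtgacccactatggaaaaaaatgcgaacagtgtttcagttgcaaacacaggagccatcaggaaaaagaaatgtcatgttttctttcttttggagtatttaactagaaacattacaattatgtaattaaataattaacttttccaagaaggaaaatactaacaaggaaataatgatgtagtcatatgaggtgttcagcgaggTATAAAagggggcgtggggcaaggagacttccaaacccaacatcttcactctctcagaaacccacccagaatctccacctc
Ifit1: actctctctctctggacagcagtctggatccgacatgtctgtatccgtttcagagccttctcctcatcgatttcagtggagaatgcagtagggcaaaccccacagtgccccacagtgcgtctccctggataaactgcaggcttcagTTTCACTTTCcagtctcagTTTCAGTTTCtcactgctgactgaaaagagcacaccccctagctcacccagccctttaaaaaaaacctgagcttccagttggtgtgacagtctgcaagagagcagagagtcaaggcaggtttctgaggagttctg

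Of the 42 lower hair genes, 36 had a promoter in that table, and 25 of these (69.4%) held TATAAA on the gene's strand, against 8.04% of the 14749 promoters of all genes tested. The share was not particular to hair genes: it was 68.4% (13 of 19) in the activated keratinocyte list described further on. Among all lower genes with a promoter, which include these hair genes, it was 42.4%. The letters CTTTGA or CTTTGT on either strand, the core bound by Lef and Tcf factors, were found in 20 of the 36 (55.6%), against 28.0% of all. The share was 39.4% among all lower genes, which include these, 35.0% among all higher genes and 21.1% in the activated keratinocyte list. The hair promoters shown above held no such match. Matches of the 2 motifs can share at most 1 end base. A match is a description of the sequence and not evidence of binding. Motifs were set beside the lists with no test.

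Krt27 (probe set 10390816), a type I keratin of the inner root sheath, ranged in F1 skin at 1008 h between 3.99 and 9.90 with a median of 8.08, and in untreated F1 it was 10.35, 4.19, 4.37 and 5.08. FVB arrays gave 12.71, 13.02 and 12.81 at 1008 h, against 5.43, 5.03 and 5.12 untreated. The FVB arrays of both times were far apart and did not overlap, whereas the F1 arrays overlapped, with 3 at 1008 h at or above 9 and untreated replicate 1 above all of them. The F1 change was 1.34 (adjusted p = 0.753) and the FVB change 7.66 (adjusted p = 2.8e-06). The difference was -6.32 ± 1.43 (95% interval -9.19 to -3.45, adjusted p = 0.00992), or a ratio of 79.9-fold between the 2 changes. Fold values given with later differences are such ratios too, and not ratios of levels between strains. In SPR, with 2 arrays against 2, the change was 4.00 and not called (adjusted p = 1.0).

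Krt71 (probe set 10432799), the type II partner keratin of the inner root sheath, ranged between 5.54 and 10.60 in F1 at 1008 h with a median of 8.73, against 11.05, 4.71, 5.18 and 5.79 untreated. On the FVB arrays it was 13.58, 13.67 and 13.62 at 1008 h, against 5.84, 6.4 and 6.60 untreated. Again the FVB times were wholly apart and the F1 times overlapped. The difference was -5.79 ± 1.37 (adjusted p = 0.0152), from changes of 1.56 in F1 and 7.35 in FVB, and the SPR change was 5.10 (adjusted p = 0.887). Krt26, Krt72 and the other type I and II keratins of the sheath, Krt25, Krt28, Krt73 and Krt74, had differences between -2.29 and -5.86. Trichohyalin (Tchh), which hardens in the inner root sheath, had -5.61 ± 1.25 (adjusted p = 0.00866). The peptidylarginine deiminase Padi3, which modifies trichohyalin, had -4.90 and the transglutaminase Tgm3, which cross-links it, -2.30. The uncalled members of this list were Krt75, a keratin of the companion layer, with -1.92 (interval -3.07 to -0.78, adjusted p = 0.0756), and the regulator Gata3 with 0.43 (interval -0.58 to 1.43).

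Krt33a (probe set 10390963), a hair shaft keratin, had the difference of largest size among the named genes, -6.42 ± 1.57 (adjusted p = 0.0198). It ranged between 3.87 and 9.48 in F1 at 1008 h with a median of 5.95, against 10.33, 3.38, 4.43 and 3.49 untreated. The FVB values were 11.78, 11.93 and 12.07 at 1008 h, against 4.56, 4.45 and 4.65 untreated. As with Krt27, the F1 times overlapped through untreated replicate 1 and 3 low arrays at 1008 h. Krt86, Krt31, Krt34, Krt35, Krt39, Krt82, Krt33b and Krt40 had differences between -2.86 and -5.69. The shaft keratins Krt84 and Krt36 went the other way without a call, with differences of 1.40 (interval -0.78 to 3.58) and 1.5 (interval 0.02 to 2.98), and Krt32 had -1.32 (adjusted p = 0.077).

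Among keratin-associated proteins, Krtap6-3 (probe set 10436764), a glycine- and tyrosine-rich one, ranged between 3.34 and 7.04 in F1 at 1008 h with a median of 4.49, against 9.38, 2.86, 3.41 and 3.04 untreated. The FVB values were 9.64, 9.27 and 10.36 at 1008 h, against 3.38, 3.37 and 3.19 untreated. Untreated replicate 1 was the highest of all F1 arrays here too, and the FVB arrays rose above their controls by more than any F1 array. The difference was -6.29 ± 1.22 (adjusted p = 0.00246). Krtap4-1 had -5.64 ± 1.25 (adjusted p = 0.00854), Krtap4-16 -5.63 ± 1.29 and Krtap11-1 -5.54 ± 1.17. Krtap8-1, the brightest member not called, had -6.08 (interval -9.53 to -2.63, adjusted p = 0.0558). The member in the opposite direction was Krtap13, with 2.03 (adjusted p = 0.00156), from changes of -0.05 in F1 and -2.08 in FVB. Its mean level was low, at 3.77, and with dim probe sets left out the list held 23 members and 0 were higher. Gprc5d, an orphan receptor made in hair-forming cells, had -5.70 ± 1.17 (adjusted p = 0.00398). Probe sets of near-identical members of such families can share signal, so these genes are not fully separate measurements.

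**Figure D3:**
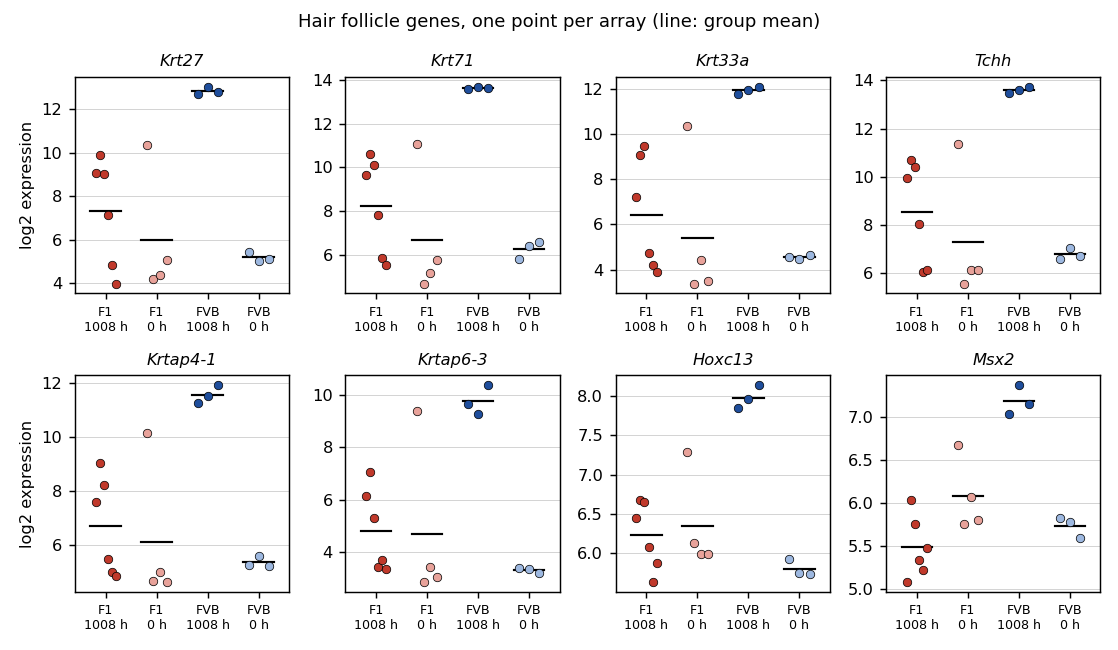
Log2 expression of 8 hair follicle genes on each of the 16 arrays, with a line at the mean of each group. At 1008 h the 3 FVB arrays lie close together and above FVB at 0 h, while the 6 F1 arrays spread widely and 1 untreated F1 array lies as high as the upper F1 arrays or higher in most panels.

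The hair difference depended on the arrays it was taken over in size, not in sign. Without untreated F1 replicate 1, 27 of the 54 hair genes were lower, with a median difference of -3.11, and the difference of Krt27 was -4.69 (adjusted p = 0.0566) and that of Krtap6-3 -4.53 (adjusted p = 0.00751). Relative to the other 3 F1 controls, the mean of the 54 genes was 1.77, 3.14, 2.75, 0.73, 0.34 and 0.24 above untreated skin on the 6 F1 arrays and 4.25, 4.51 and 4.63 above it on the FVB arrays. On that scale too the strains did not overlap, and 3 F1 arrays were near their controls. With F1 of batch 2 alone, which holds replicate 1 of untreated skin, 48 of the 54 were lower (median F1 change -1.10, median difference -5.93). With F1 of batch 3 alone 16 were lower and 2 higher (median F1 change 2.60, median difference -2.14). The F1 change of hair genes thus had opposite median signs in the 2 batches, and the median FVB change of 4.81 exceeded both. Without FVB controls 2 and 3 none of the 54 was called and the median was -4.17.

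Regulators of the hair matrix were lower in 6 of 25 measured members, against 0.887% of all genes, with a median of -0.42. Without untreated F1 replicate 1 the count was 3, with F1 of batch 3 alone 2, and without FVB controls 2 and 3 it was 1, and the medians were -0.45, -0.63 and -0.42. Hoxc13 (probe set 10427268), a homeobox factor that controls hair keratin genes, ranged between 5.63 and 6.67 in F1 at 1008 h with a median of 6.26, against 7.29, 6.13, 5.99 and 5.99 untreated. FVB skin had 7.85, 7.96 and 8.14 at 1008 h, against 5.92, 5.75 and 5.73 untreated. Only the FVB arrays separated by time. The difference was -2.33 ± 0.41 (adjusted p = 0.00156) and stayed called without untreated F1 replicate 1, at -1.99 (adjusted p = 0.00751).

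Msx2 (probe set 10409314), another homeobox factor of the matrix, ranged between 5.08 and 6.03 in F1 at 1008 h with a median of 5.41, against 6.68, 5.76, 6.07 and 5.80 untreated. FVB arrays gave 7.04, 7.37 and 7.15 at 1008 h, against 5.82, 5.78 and 5.59 untreated. The F1 arrays at 1008 h overlapped their controls at the lower end, and the FVB arrays lay above theirs. The difference was -2.06 ± 0.32 (adjusted p = 0.000216), and it was -2.39 with F1 of batch 2 alone and -1.68 with batch 3 alone. Dlx3 had -1.48, Fgf5, a signal that ends hair growth, -1.26, and Foxn1, the factor lost in nude mice, -1.13. Lef1 with -0.08 and Wnt10b with 0.08 were not called. Corin, a protease of the dermal papilla, had -1.25 and was the 1 lower member of 19 in the dermal papilla list. That list had a median difference of 0.043, with 13 members above 0 and 6 below.

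Further lower genes outside the hair lists were Bambi, a decoy receptor of the TGF-beta family, with -2.25 ± 0.35 (adjusted p = 0.000216), and Tent5b, a poly(A) polymerase family gene, with -2.02 ± 0.29 (adjusted p = 7.43e-05). Tent5b ranged between 7.64 and 8.22 in F1 at 1008 h with a median of 7.96, against 8.70, 8.39, 8.38 and 7.95 untreated. On the FVB arrays it was 8.99, 8.9 and 8.92 at 1008 h, against 7.40, 7.32 and 7.31 untreated. All FVB arrays at 1008 h lay above their controls, and 3 of the 6 F1 arrays lay below the lowest of theirs. In the pigment list 1 of 20 was lower, Slc24a5, an exchanger of the melanosome, with -1.70 ± 0.34 (adjusted p = 0.00327). Its mean level was low, at 4.21. With dim probe sets left out the pigment list held 14 members and 0 were lower, with a median of -0.12 in place of -0.55. In the follicle stem cell list it was 1 of 21, Tbx1, with -1.40 ± 0.33. Krt15 and Cd34, markers of bulge stem cells, were not called (1.67, interval 0.57 to 2.77, and 0.59, interval -0.60 to 1.79).

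Genes of activated keratinocytes rose in both strains, and where the difference was called it was lower in F1. Of 26 measured members, 15 rose in F1 and 25 in FVB, with median changes of 2.04 and 3.94, and all 26 had a difference below 0 (median -2.05). Of all genes tested, 0.515% rose in F1, 4.22% rose in FVB and 8780 of 18820 had a difference below 0. The difference itself was called lower for 6 members, against 0.887% of all genes: Defb3, S100a9, Serpinb3a, Il1f6, Defb14 and Sprr2i. The list score, the mean of its members around the strain's own controls, was 2.53, 2.27, 0.69, 2.34, 2.13 and 0.64 on the 6 F1 arrays at 1008 h, and 4.05, 3.66 and 3.76 on the FVB arrays. F1 arrays 3 and 6 were well below the other 4, and all 6 were below the 3 of FVB. In SPR at 1008 h the scores were 0.22 and -0.11.

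S100a9 (probe set 10499861), a subunit of calprotectin made by keratinocytes under stress and by neutrophils, ranged between 6.26 and 8.73 in F1 at 1008 h with a median of 8.44, against 6.29, 4.67, 5.83 and 5.57 untreated. The FVB values were 11.85, 11.26 and 11.18 at 1008 h, against 5.17, 5.20 and 5.68 untreated. It rose in both strains, by 2.32 in F1 and 6.08 in FVB, with 1 F1 array at the level of the controls. The difference was -3.76 ± 0.94 (adjusted p = 0.0249), or 13.5-fold. In the neutrophil list S100a9 was the 1 lower member of 15, its partner S100a8 had -3.71 (adjusted p = 0.0846), and the neutrophil receptor Cxcr2 had -0.76 (interval -2.20 to 0.69).

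Defb3 (probe set 10570621), a beta-defensin with antimicrobial action, ranged between 5.78 and 8.77 in F1 at 1008 h with a median of 7.87, against 5.36, 4.61, 6.36 and 6.16 untreated. FVB skin had 11.11, 10.80 and 10.88 at 1008 h, against 4.55, 4.59 and 4.96 untreated. The F1 times overlapped in 1 array and the FVB times were wide apart. The difference was -4.27 ± 0.96 (adjusted p = 0.00997). Serpinb3a, a protease inhibitor of the epidermis, had -3.13 ± 0.86 (adjusted p = 0.0468).

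Il1f6 (probe set 10469793), which encodes the keratinocyte cytokine IL-36 alpha, ranged between 9.23 and 11.73 in F1 at 1008 h with a median of 11.38, against 8.19, 7.85, 8.62 and 8.22 untreated. FVB arrays gave 11.59, 11.29 and 11.40 at 1008 h, against 5.73, 5.92 and 6.59 untreated. In both strains every array at 1008 h was above every control. The difference was -2.63 ± 0.60 (adjusted p = 0.0108), and it took the opposite sign, 0.75 (adjusted p = 0.772), when FVB at 168 h replaced FVB at 0 h as the FVB baseline. Stress keratins were not called, with -1.96 for Krt6b (interval -3.90 to -0.01) and -1.29 for Krt17 (interval -2.59 to 0.00). Of the cornified envelope list 1 of 20 was lower, Lce3c with -2.48 ± 0.64. The calls of the keratinocyte list depended on the arrays: 11 members were called with F1 of batch 2 alone and 0 with batch 3 alone, 0 against FVB at 168 h, 0 with F1 changes scaled to the spread of batch 1, and 0 without FVB controls 2 and 3. Medians under these settings were -2.69, -1.03, -1.31, -1.56 and -1.99. More were called without the 2 arrays of narrow range, replicate 1 of SPR at 12 h and replicate 2 of F1 at 72 h (15), with cyclic loess (11) and with the 16 arrays fitted alone (11), and 3 were called without untreated F1 replicate 1.

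**Figure D4:**
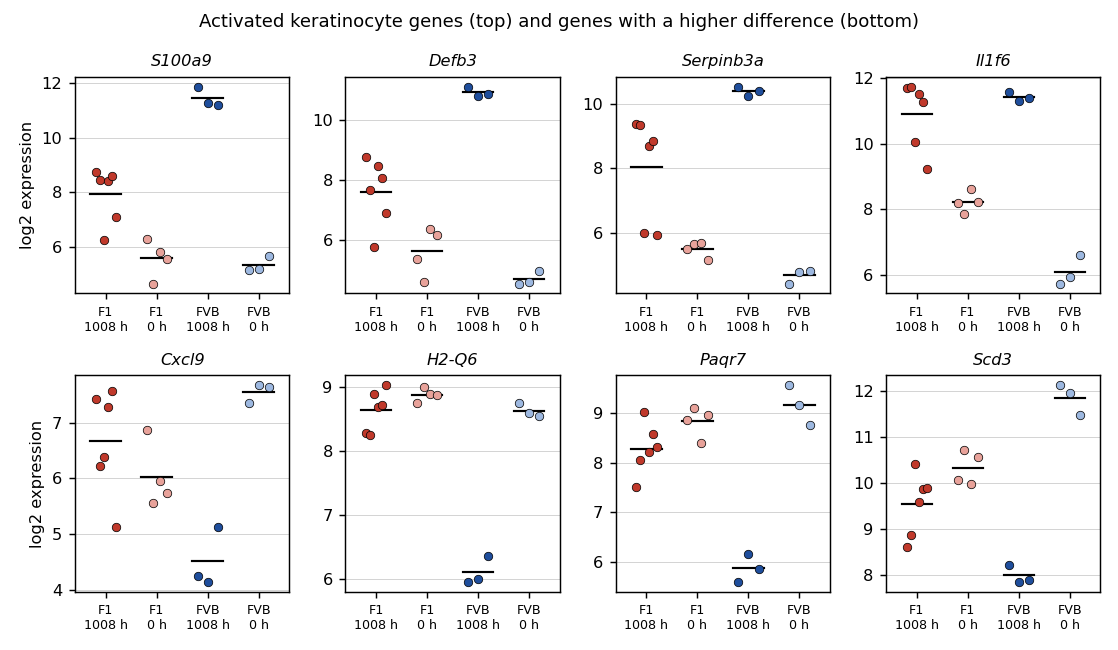
Log2 expression of 4 activated keratinocyte genes (top) and 4 genes with a higher difference (bottom) on each of the 16 arrays, with a line at each group mean. The top genes are higher at 1008 h in both strains, with 2 low F1 arrays. In the bottom genes every FVB array at 1008 h lies below every FVB control, while the F1 arrays of both times overlap.

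Interferon response genes were the largest listed group among the higher genes: 5 of 24 measured members were higher, and 23 of 24 had a difference above 0 (median 1.06, against 0.035 for all genes). Of all genes tested, 0.526% were higher, 10039 of 18820 had a difference above 0, and 3.92% fell in FVB. The list had a median change of 0.06 in F1, with 1 member called down, and -1.15 in FVB, where 13 fell and 0 rose. Its score was between -0.21 and 0.19 on the F1 arrays at 1008 h and -1.19, -1.23 and -1.15 on the FVB arrays, so that the strains did not overlap. Of the promoters, 12 of the 17 found for this list (70.6%) held the response element, against 3.34% of all genes and 11.2% of the promoters found for all higher genes. Among the promoters of the lower hair genes it was 2 of 36 (5.56%).

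Cxcl9 (probe set 10531407), a chemokine induced by interferon gamma that draws T cells, ranged between 5.13 and 7.56 in F1 at 1008 h with a median of 6.83, against 6.86, 5.55, 5.95 and 5.74 untreated. On the FVB arrays it was 4.25, 4.14 and 5.13 at 1008 h, against 7.36, 7.67 and 7.64 untreated. The F1 times overlapped, and the FVB arrays at 1008 h were all below their controls. The difference was 3.67 ± 0.83 (adjusted p = 0.0097), or 12.7-fold. The guanylate-binding protein gene Gbp2 had 2.21 ± 0.60 (adjusted p = 0.0468) and the RNA sensor Ifih1 1.47.

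Ifit1 (probe set 10462623), an RNA-binding antiviral protein whose promoter is shown above, ranged between 4.70 and 5.5 in F1 at 1008 h with a median of 4.78, against 5.41, 5.05, 5.37 and 5.04 untreated. The FVB values were 4.14, 4.05 and 4.13 at 1008 h, against 6.01, 6.48 and 6.69 untreated. The drop was clear in FVB, and in F1 the times overlapped. The difference was 2.00 ± 0.53 (adjusted p = 0.041), and that of Mx2, an antiviral GTPase, was 1.92 ± 0.41 (adjusted p = 0.00566). Members without a call included Stat2 with 1.12 (interval 0.42 to 1.83), Ddx58 with 1.07 (interval 0.41 to 1.73) and Oasl2 with 1.61 (interval 0.50 to 2.72). After centring on array medians 2 members were called in place of 5, with F1 of batch 2 alone 2, with batch 3 alone 0, and without FVB controls 2 and 3 also 0. Without untreated F1 replicate 1 it was 3, with cyclic loess or without the 2 narrow arrays 7, and with the 16 arrays fitted alone 14. Medians under all of these settings lay between 0.92 and 1.16.

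In the list of class I genes and peptide loading 1 of 15 was higher, against 0.526% of all genes, with a median of 0.94. It was 6 with cyclic loess, with the 16 arrays fitted alone and without the 2 narrow arrays, 4 with dim probe sets left out and with no batch term, and 1 without FVB controls 2 and 3 and without untreated F1 replicate 1. H2-Q6 (probe set 10444824), a class I molecule of the Q region, ranged between 8.25 and 9.02 in F1 at 1008 h with a median of 8.70, against 8.74, 9, 8.88 and 8.87 untreated. FVB skin had 5.96, 6.00 and 6.36 at 1008 h, against 8.75, 8.59 and 8.54 untreated. All F1 arrays lay within 1 unit of each other, while FVB at 1008 h lay apart. The difference was 2.24 ± 0.33 (adjusted p = 0.000111), and it stayed called without FVB controls 2 and 3, at 2.37 (adjusted p = 0.0126). H2-K1 had 1.06 (interval 0.45 to 1.66, adjusted p = 0.0618), and B2m 0.69 (interval -0.39 to 1.78).

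T lymphocyte markers had a median difference of 1.09 with 0 of 16 called, from medians of 0.17 in F1 and -1.25 in FVB. In FVB 8 of these markers fell, against 3.92% of all genes. With the 16 arrays fitted alone 5 were called higher, without the 2 narrow arrays 3 and with cyclic loess 2. Their scores on the FVB controls were -0.67, 0.12 and 0.55, in the same order as the liver scores of -1.94, 0.73 and 1.21, and without FVB controls 2 and 3 the median difference was 0.34. The part of these other transcripts in the T cell values was not tested. Liver genes themselves were called in 0 of 32. Pancreas genes had a median difference of 1.10, with 14 of 15 above 0, 0 called and 2 that fell in FVB, and scores of -1.11, 0.27 and 0.84 on the FVB controls, again in that order. Of the dendritic epidermal T cell list 1 of 9 was higher, the chemokine Xcl1 with 2.11 ± 0.40 (adjusted p = 0.00223), and Skint10, a member of the Skint family of keratinocyte genes, had 2.67 ± 0.47 (adjusted p = 0.00156).

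Other higher genes with large differences fell in FVB. Paqr7 (probe set 10508992), a membrane progestin receptor, ranged between 7.52 and 9.02 in F1 at 1008 h with a median of 8.27, against 8.86, 9.12, 8.41 and 8.96 untreated. FVB arrays gave 5.59, 6.16 and 5.86 at 1008 h, against 9.57, 9.17 and 8.76 untreated. In F1, 4 of the 6 arrays lay below the lowest control and the times overlapped, and the FVB times were wide apart. The difference was 2.74 ± 0.39 (adjusted p = 7.47e-05), or 6.68-fold.

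Scd3 (probe set 10463347), a fatty acid desaturase of the sebaceous gland, ranged between 8.61 and 10.40 in F1 at 1008 h with a median of 9.73, against 10.06, 10.71, 9.98 and 10.56 untreated. On the FVB arrays it was 8.21, 7.84 and 7.89 at 1008 h, against 12.12, 11.96 and 11.48 untreated. It fell in FVB by 3.87, and the F1 change was -0.84 (adjusted p = 0.603). The difference was 3.03 ± 0.74 (adjusted p = 0.0191), and Scd3 was the 1 higher member of 20 in the sebaceous list, whose median was 0.69. The brighter desaturase Scd1 had 0.25 (interval -0.86 to 1.35).

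Carns1, which makes carnosine, had 2.75 ± 0.55 (adjusted p = 0.00327), from changes of -1.13 in F1 and -3.89 in FVB. Krt77, a type II keratin, was 7.85, 9.51 and 11.03 in FVB at 1008 h, against 12.71, 12.74 and 12.62 untreated, the widest spread of the FVB arrays among these genes, and had 2.72 ± 0.72 (adjusted p = 0.0381). Il12rb2, a subunit of the interleukin 12 receptor, had 2.31 ± 0.32 (adjusted p = 7.43e-05), from changes of -0.24 in F1 and -2.55 in FVB. Sema3d, a secreted guidance cue, had 2.27 ± 0.47 (adjusted p = 0.00412). Of 88 measured cytochrome P450 (Cyp) genes 6 were higher and 0 lower, against 0.526% and 0.887% of all genes. Among them were Cyp2g1 with 2.59 ± 0.65 and Cyp2j9 with 1.55 ± 0.27. The alcohol dehydrogenase Adh6a had 2.56 ± 0.43 and the carboxylesterase Ces1d 1.75 ± 0.44. In the xenobiotic list, which holds Cyp2g1 and Ces1d, 2 of 26 were higher and 1 lower. Its scores on the FVB controls were -0.28, 0.11 and 0.17, in the same order as the liver scores. The part of liver transcripts in these values was not tested. In the clock list 1 of 16 was higher, Npas2 with 1.79 ± 0.35 (adjusted p = 0.00246), and time of day was not given. The median difference of that list was -0.12, with 7 members above 0 and 9 below.

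Some cell division genes rose at 1008 h in each strain, and none had a called difference. The mitosis list had medians of 0.66 in F1, where 2 of 22 rose, and 0.88 in FVB, where 6 rose, and 0 had a called difference (limma, median -0.19). Mki67, a marker of cycling cells, had a difference of -0.05 (interval -0.64 to 0.54). Likewise 0 of 22 collagen and matrix genes, 0 of 13 basal keratinocyte genes, 0 of 16 sterol synthesis genes and 0 of 42 Wnt pathway genes were called. In the list of cytokines and chemokines it was 0 of 26. That list does not hold Cxcl9, Xcl1 and Il1f6, described above with other lists, or Il17f, which had -1.73 (adjusted p = 0.0326). Of all genes 1.41% were called, so a count of 0 in lists this small is near the overall share. Among all genes, 2384 had an unadjusted p under 0.05 for the difference. A missed threshold does not show that the strains changed alike: for Krt14, the basal keratin, the interval ran from -2.54 to -0.30.

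At earlier times the same lists put the 1008 h values in context, each score being relative to the strain's own untreated mean. The inner root sheath score of FVB stayed between -0.28 and 0.64 on average from 2 to 168 h and was 4.82 at 1008 h. In F1 it was 3.18 on the single array of 2 h, -0.11 and 2.97 on the 2 arrays of 24 h, and -0.82 to 2.13 at 1008 h. High hair scores thus occurred on single F1 arrays at several times, including untreated replicate 1 with 2.77. In SPR it was 2.87 and 3.34 at 48 h and 2.55 and 2.65 at 1008 h. The score of activated keratinocytes in F1 was 3.38 at 12 h, 0.68 at 168 h and 1.77 at 1008 h, and in FVB 3.62, 1.03 and 3.82. The interferon score in FVB was -0.22 at 168 h and -1.19 at 1008 h, and in F1 -0.10 and -0.01. Thus in FVB all 3 lists were further from untreated skin at 1008 h than at 168 h.

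**Figure D5:**
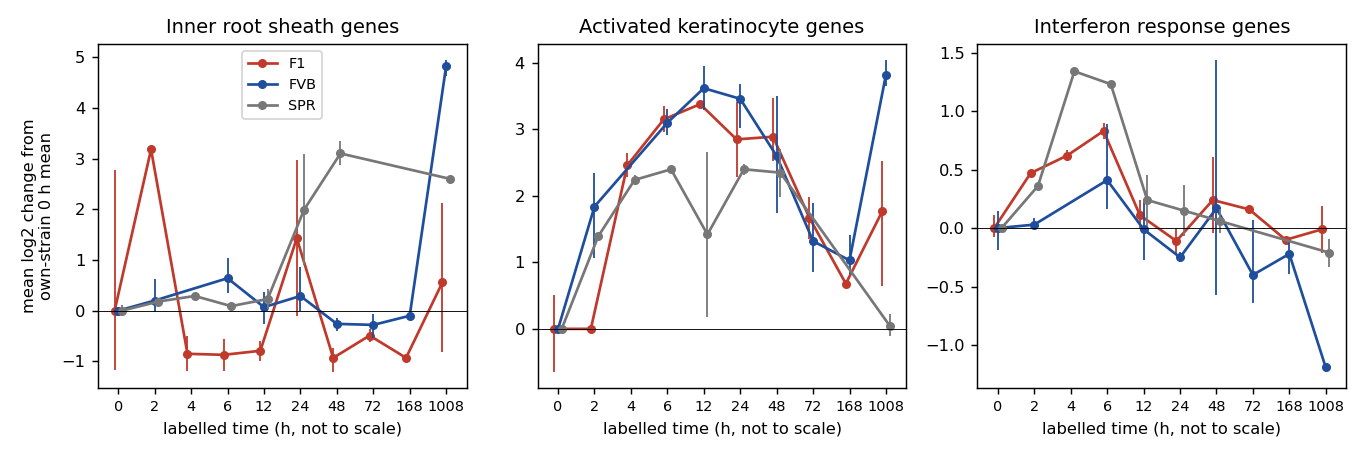
Mean list score (log2, relative to the strain's own untreated mean) at each labelled time for F1, FVB and SPR, with bars from the lowest to the highest array and times evenly spaced, not to scale. FVB departs from 0 at 1008 h in all 3 panels, and the F1 bars at 0, 24 and 1008 h are long in the inner root sheath panel.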

How the data were processed

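The authors deposited log2 expression values for 35556 probe sets of 69 Affymetrix arrays, made from biotin-labelled cRNA of dorsal skin, per the labels' protocols. RMA, which corrects background, normalises arrays and summarises probes, is named in the submitters' processing notes with no version, and any handling of batches before deposit was not given in the labels. An alignment of batches would remove level differences between strains, so each change was taken within a strain. Such an alignment can also compress changes, which taking them within a strain does not undo. With F1 changes scaled by 1.29 to the spread of batch 1, 104 differences were called in place of 266. Gene names come from the platform annotation: 21218 probe sets had 1 symbol, 1881 with several were left out, and 12457 are unnamed here. For each of 18820 genes the brightest probe set on average stood for the gene, over 66 arrays that the labels give a strain and time, and 3 other arrays entered no comparison. No pair of arrays held identical values.

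The difference, (F1 at 1008 h less F1 at 0 h) less (FVB at 1008 h less FVB at 0 h), was fitted with limma 3.58.1 in R 4.3.3 (lmFit, eBayes) with 27 group means and 1 coefficient that separates batches 2 and 3, with 38 residual degrees of freedom. Calls needed a two-sided Benjamini-Hochberg adjusted p under 0.05 and an absolute difference of at least 1. The number of arrays limits the precision: 3 against 3 cannot give an exact permutation p below 0.1, so no such test was run. Whether probe sets hold sites that differ in Spret/Ei was not tested.

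The members and gene lists were chosen with earlier results of these data known, and lists are described by counts and medians alone. Named genes are the 12 largest differences each way and the 10 largest moderated t among called genes whose F1 and FVB array deviations do not overlap, up to 4 called members of each list, and up to 3 bright uncalled members of lists described. Genes called in opposite directions, a further part of the rule, numbered 0. Other members of lists are named where a list is described, after their values were seen. Same-numbered arrays did not deviate together (correlations between -0.394 and 0.365), so replicate numbers were not taken as pairs. Alternatives were other moderation, scaling, normalisation, filters, probe sets, baselines and batches, a replicate block, and each array left out. List counts under each alternative and list scores against the other 3 F1 controls were added after seeing the data. Figures were drawn with matplotlib 3.10.9 in Python 3.11.15.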

Additional observations from a re-analysis of the deposited data

Results flagged for a closer look

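In 16 of 108 groups of 4 to 6 arrays tested over the named genes, 1 array lay far from the others of its group relative to the group's range, and chance gives about 1 in 20. Of these, 14 were untreated F1 replicate 1, which was high in each: Tchh 11.36, Krt71 11.05, Krt27 10.35, Krt33a 10.33, Krtap4-1 10.13, Krt31 9.56, Krtap11-1 9.39, Krtap6-3 9.38, Krt72 9.36, Krtap4-16 8.85, Krt26 8.72, Krt34 8.16, Hoxc13 7.29 and Slc4a1 6.36 on the log2 scale. All but Slc4a1 are genes of the hair lists or the Krtap family, so the flags are not independent of each other. In untreated F1 replicate 2, Carns1 was high at 8.75 and Cyp2g1 low at 11.22, in a group whose other arrays lay close together.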

How the results depend on the processing

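The 266 called differences kept their sign under every alternative run that held them, except that 261 did when FVB at 168 h was the baseline. Leaving out dim probe sets kept 247 of the 266. Against FVB at 168 h, Il1f6 among the named genes took the opposite sign (0.75). Counts of called differences moved by more than 1.5 times with cyclic loess (583), with the 16 arrays fitted alone (734), without the 2 narrow arrays, replicate 1 of SPR at 12 h and replicate 2 of F1 at 72 h, which enter the estimate of spread (624), with F1 of batch 3 alone (77), with F1 changes scaled by 1.29 to the spread of batch 1 (104), and without FVB controls 2 and 3, which leaves 1 control assumed to vary like the other groups (9). With the replicate block the difference was called for 162 genes and the F1 change for 243, although the numbers do not pair the arrays. Leaving out 1 array gave 135 to 316 called differences, with 135 without untreated F1 replicate 1, 158 without untreated FVB replicate 2, and 156, 173 and 158 without FVB replicates 1, 2 and 3 at 1008 h. For the F1 change it gave 63 to 255 genes, with 63 and 83 without untreated replicates 2 and 4, 70 and 84 without replicates 1 and 2 at 1008 h, and 255 without replicate 6. The F1 change was called for 314 genes with no fold threshold, for 0 with batch 2 alone (360 at an unadjusted p under 0.05) and for 775 with batch 3 alone. The FVB change was called for 3374 genes with no fold threshold and 2459 over all probe sets. Centring on array medians moved the median difference of all genes from 0.035 to -0.105 and the split of calls to 48 higher and 215 lower, with 18.3% higher in place of 37.2%. The causes were not tested.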
